A study of Homo sapiens with 2 samples.

Results

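The genes described here are 49 components of Toll-like receptor and NF-kB signalling. They were taken by gene name, and the list was made with earlier results of these data known. It holds 7 Toll-like receptors and the TLR4 partner LY96, their adaptors, and the kinases and ubiquitin ligases below them. Also included are the NF-kB subunits and their inhibitors, and the cytosolic receptors of the NOD, inflammasome and cGAS-STING systems. A row with the same gene name was found for 48 of the 49 among 30856 gene rows, of which 22880 carried a gene symbol. AIM2 was not analysed here. Poly(A) RNA was sequenced from THP1, an established human acute monocytic leukaemia line, in 1 library from the untreated parental line and 1 from cells selected for resistance to Ara-C (cytarabine), a nucleoside analogue given in acute myeloid leukaemia, by stepwise exposure from 5 nM to 10 µM. Both groups are the same line, kept in the same serum-containing medium. The labels call the resistant cells resistant once they doubled as fast as untreated cells, and do not say whether they are 1 clone or whether Ara-C was present at harvest. With 1 library in each group there is no replicate error and no test between the conditions, so every difference below is between these libraries.

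Toll-like receptors recognise microbial molecules at the cell surface or in endosomes and, except for TLR3, signal through the adaptor MYD88 to the IRAK kinases, the ubiquitin ligase TRAF6 and the kinase MAP3K7 (TAK1). These activate the IKK complex, which marks the IkB inhibitors for degradation and so frees NF-kB dimers to enter the nucleus. Among the genes that NF-kB then switches on are its own inhibitors, which makes the pathway self-limiting. Monocytes are known for strong responses through this pathway, and THP1 cells are widely used to study it.

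The parental library held 57434972 counts and the resistant library 58285463. All 12 markers of monocytic leukaemia cells that were looked up, among them CD33, CSF1R, LYZ and SPI1, passed the level filter used below. Of these, LYZ (225 against 95.8 FPKM, parental against resistant), MPO (2.81 against 0.94) and CSF1R (12.2 against 7.74) were at least 1.5-fold lower in resistant cells. The list went both ways, with 5 genes above 0 and 7 below, and FCGR1A (29.6 against 41.2 FPKM) had the highest ratio. Of 9 markers of mature macrophages with a row, 0 reached 1 FPKM, and their summed level was 1.78 FPKM in parental and 1.46 in resistant cells. CD14, a monocyte marker and co-receptor of TLR4 that was chosen for mention after its values were seen, had 56 counts in parental and 4 in resistant cells. Of the marker lists of other cell types, those of B and plasma, erythroid and megakaryocytic, and epithelial and fibroblast cells had 0 genes past the filter. The neutrophil list had 4, ELANE (359 against 448 FPKM), CSF3R, CXCR2 and CAMP, and the T and NK cell list had NCAM1 (5.47 against 5.98). In RNA from a whole culture, fewer cells that express a gene and less RNA per cell cannot be told apart, and the part of these marker differences in the results below was not tested.

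The pathway genes as a group were at similar levels in both libraries, and none of those above 1 FPKM was 2-fold apart once 1 FPKM was added to each value. Levels are given as FPKM, which is scaled to transcript length and library size, and in every pair of values below the parental value comes first unless stated. The difference is the log2 ratio of resistant over parental FPKM after adding 1 FPKM to each, which shrinks the differences of low genes. Of the 48 genes, 38 reached 1 FPKM in at least 1 library, and their median log2 ratio was -0.02, beside -0.02 over all 11388 genes that passed the same filter. There were 24 of the 38 below 0 and 14 above, and 53.3% of all genes lay below 0. None of the 38 was 2-fold higher (0.632% of all genes were) or 2-fold lower (1.23% of all genes). At 1.5-fold, 0 were higher (2.93% of all genes) and 2 were lower, TNFAIP2 and NLRC4, which is 5.26% of the members beside 4.77% of all genes. These shares are near those of all genes, with 0 to 2 of 38 genes in each.

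**Figure D1:**
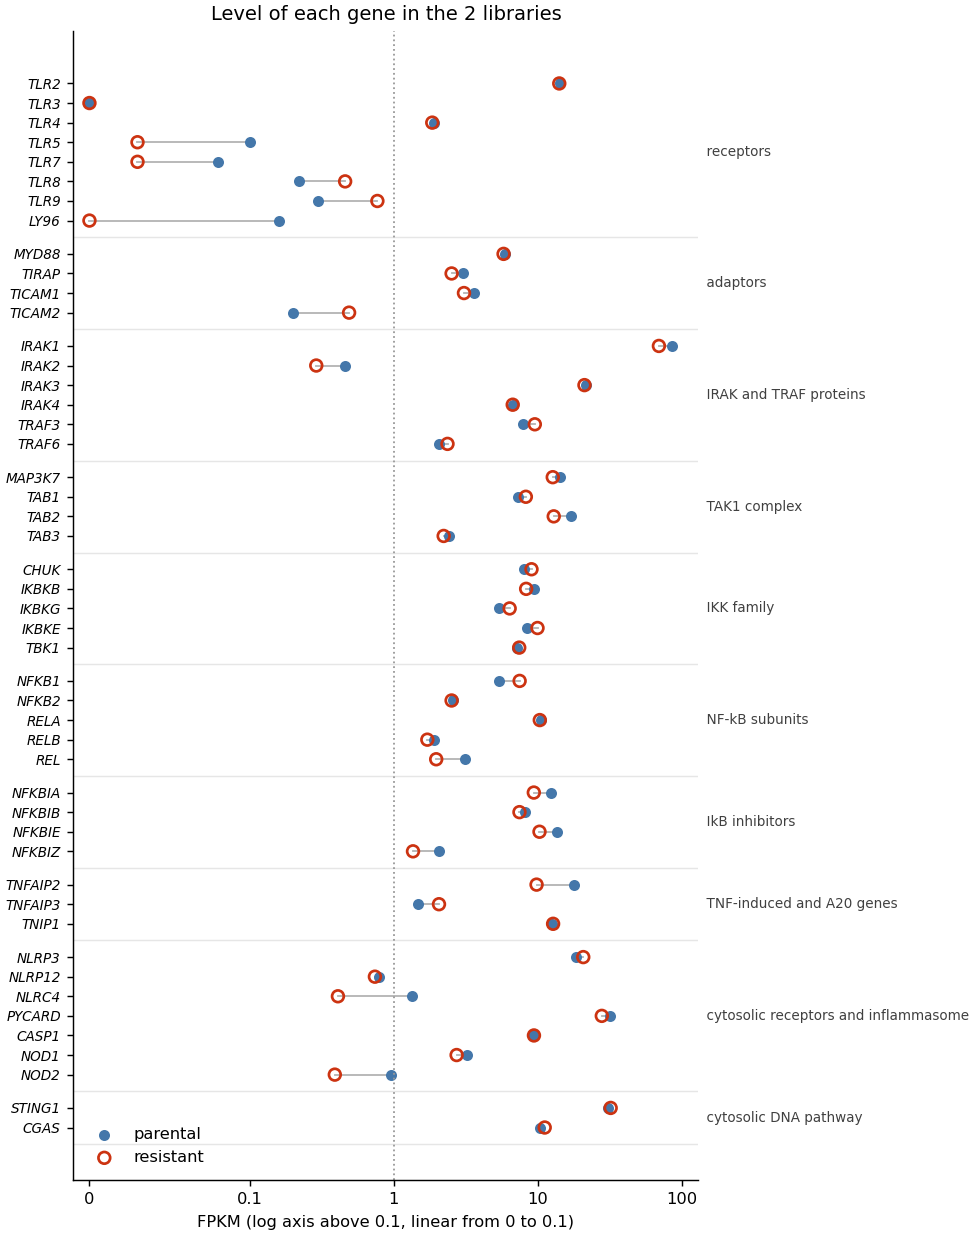
FPKM of the 48 genes in the parental (filled) and resistant (open) library, grouped by role; the axis is logarithmic above 0.1 FPKM and linear below, and the dotted line marks 1 FPKM. Most pairs lie close together up to IRAK1 at 85.1 FPKM, and the wide gaps are at the low end, as in TLR5, TLR9, NLRC4 and NOD2.

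**Figure D2:**
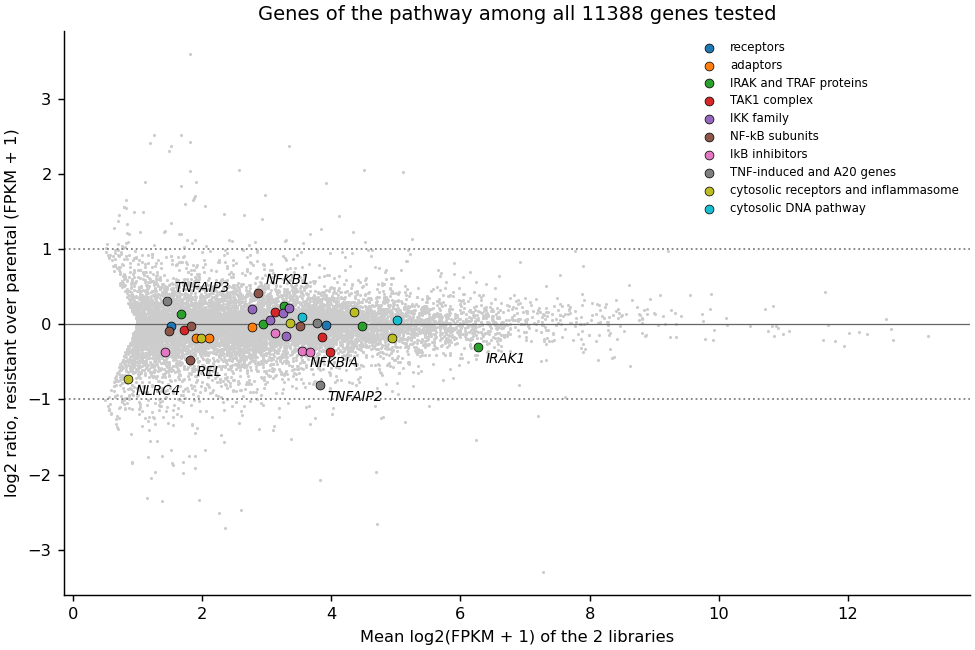
Log2 ratio of resistant over parental (FPKM + 1) against the mean log2(FPKM + 1) for the 11388 genes tested (grey) and the 38 pathway genes that passed the filter (coloured by role). The coloured points lie between -0.81 (TNFAIP2) and 0.42 (NFKB1), inside the dotted 2-fold lines.

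Counts give a second measure, the ratio of a gene's share of the library total, with an exact 95% Clopper-Pearson interval that covers counting error only, and every fold given below with an interval is on this measure. The interval lay above equal levels for 11 of the 38 genes (33.7% of all genes) and below for 16 (39.1%), and 27 of the 38 differed by less than 1.2-fold (62.3% of all genes). Of 46 members with at least 20 counts in a library, 3 were 2-fold or more above parental cells (6.52%, beside 4.78% of 15342 genes) and 4 were 2-fold or more below (8.70%, beside 8.94%). At 1.5-fold the 3 genes above were the only higher ones (9.37% of all genes) and 8 were lower (17.4%, beside 15.1%). The shares are again close to those of all genes, and the 7 genes past 2-fold all had few counts.

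**Figure D3:**
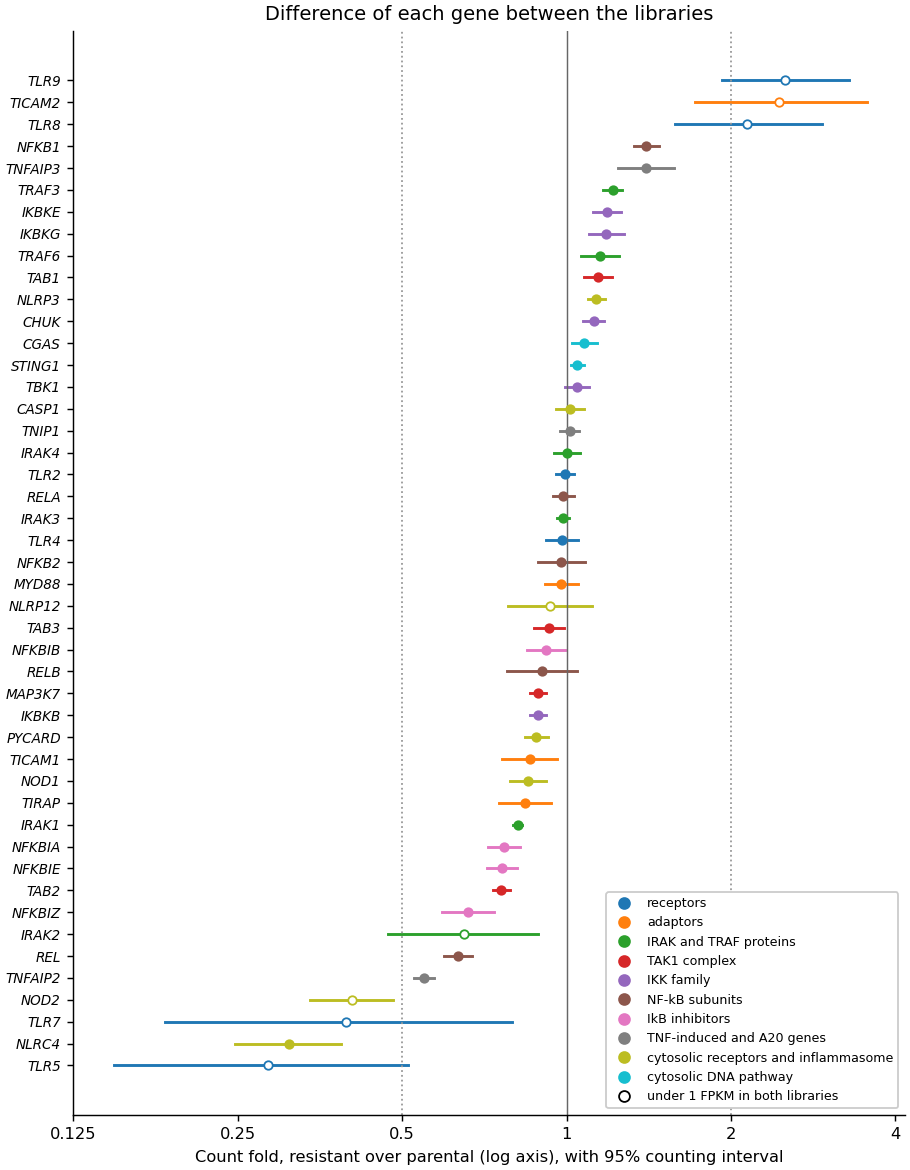
Count fold of resistant over parental cells on a log axis, with the 95% counting interval, for the 46 genes with at least 20 counts in a library; open points are genes under 1 FPKM in both libraries and dotted lines mark 2-fold. TLR9, TICAM2 and TLR8 lie above 2-fold and TLR5, NLRC4, TLR7 and NOD2 below.

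Among the receptors, TLR2 was by far the highest. TLR2, which senses bacterial lipoproteins and lies on chromosome 4 from 153684070 to 153705259 (GRCh38), was at 14.2 FPKM in parental and 14.1 in resistant cells (5478 and 5513 counts, 0.992-fold, 0.955 to 1.03). TLR4, the receptor for lipopolysaccharide, was at 1.89 and 1.85 FPKM (0.980-fold, 0.915 to 1.05). The intervals of TLR2 and TLR4 included equal levels. LY96, the secreted protein with which TLR4 binds lipopolysaccharide, had 7 counts in parental and 0 in resistant cells. The counting interval of LY96 began at 1.46-fold lower. CD14, named above, was 14.2-fold lower (5.25 to 54.0) in resistant cells. LY96 and CD14 were thus lower in resistant cells, from few counts, while the interval of TLR4 included equal levels. Of all genes with 20 to 500 counts in the higher library, the range that holds CD14, 21.1% were 2-fold or more lower. LY96 is under that range. TLR3, the receptor for double-stranded RNA, had 0 counts in either library, and such a count allows up to 3.

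The endosomal and flagellin receptors were low, under 1 FPKM in both libraries, and did not differ in the same direction. TLR9, which senses unmethylated DNA, was at 0.30 and 0.77 FPKM (79 and 201 counts, 2.51-fold higher, 1.92 to 3.30). TLR8, a receptor for single-stranded RNA, was at 0.22 and 0.46 FPKM (63 and 137 counts, 2.14-fold higher, 1.58 to 2.94). TLR7, which also senses single-stranded RNA, was at 0.08 and 0.03 FPKM (30 and 12 counts, 2.54-fold lower, 1.26 to 5.44). TLR7 and TLR8 are neighbours on chromosome X, 16258 bases apart in the deposited coordinates, and lay on opposite sides of equal levels. TLR5, the surface receptor for bacterial flagellin, was at 0.10 and 0.03 FPKM (52 and 15 counts, 3.52-fold lower, 1.95 to 6.73).

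Of the adaptors, 3 of 4 were above 1 FPKM and within 1.2-fold of equal levels. MYD88 was at 5.93 and 5.78 FPKM (0.978-fold, 0.911 to 1.05). TIRAP, which bridges TLR2 and TLR4 to MYD88, was at 3.01 and 2.52 (0.840-fold, 0.753 to 0.936), and TICAM1 (TRIF), the adaptor of TLR3 and of TLR4 in endosomes, at 3.60 and 3.07 (0.855-fold, 0.762 to 0.959). The intervals of TIRAP and TICAM1 lay below equal levels. TICAM2 (TRAM), which links TLR4 to TICAM1, was at 0.20 and 0.49 FPKM (45 and 112 counts, 2.45-fold higher, 1.72 to 3.55). It is overlapped on its own strand by the read-through gene TMED7-TICAM2, which had 446 and 324 counts. Summed over both, there were 491 and 436 counts, a log2 fold of -0.19, beside 1.29 for TICAM2 alone. The higher value of TICAM2 alone thus turns to a lower one when the reads of both genes are counted together. Most of the summed counts were those of the read-through gene, which overlaps 2 genes on its strand. Its reads need not come from TICAM2, so the sum is not a level of TICAM2.

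Of the IRAK kinases, IRAK1 was the most abundant of all 48 genes. IRAK1, which is phosphorylated and released after receptor binding, was at 85.1 FPKM in parental and 69.1 in resistant cells (22236 and 18369 counts, 1.23-fold lower, 1.20 to 1.25). IRAK4, the kinase that acts first, was at 6.70 and 6.69 FPKM. IRAK3 (IRAK-M), an inhibitor of the pathway found mainly in monocytes and macrophages, was at 21.4 and 21.0. IRAK2 was under the filter at 0.46 and 0.29 FPKM (105 and 69 counts, 1.54-fold lower, 1.13 to 2.12). IRAK1 had the lowest ratio of the 3 IRAK genes that passed the filter, and 14.6% of all genes had a log2 ratio at or below its -0.30.

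The ligases and the TAK1 complex differed by less than 1.4-fold in either direction. TRAF6 was at 2.06 and 2.36 FPKM (1.15-fold higher, 1.06 to 1.25). TRAF3, which directs signals towards interferon and restrains the alternative NF-kB route, was at 7.86 and 9.52 (1.21-fold higher, 1.17 to 1.26). The kinase MAP3K7 was at 14.3 and 12.7 FPKM, and its partners TAB1 at 7.25 and 8.25 and TAB3 at 2.40 and 2.22. TAB2, the partner that binds ubiquitin chains, was the lowest of the complex relative to parental cells, at 17.0 and 12.9 FPKM (1.32-fold lower, 1.27 to 1.37).

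In the IKK family 4 of 5 genes had higher values in the resistant library, all by less than 1.2-fold. CHUK (IKK alpha), a catalytic subunit, was at 8.07 and 9.03 FPKM, while IKBKB (IKK beta), the subunit that phosphorylates IkB in the classical route, was at 9.39 and 8.29. Their ratios lay on opposite sides, at 1.12-fold (1.07 to 1.17) and 0.885-fold (0.856 to 0.916). The regulatory subunit IKBKG (NEMO) was at 5.40 and 6.37 FPKM (1.18-fold higher, 1.10 to 1.28). Its pseudogene IKBKGP1, a close copy with which reads can be shared, had 504 and 454 counts beside 1273 and 1528 for IKBKG, so the split between them is uncertain. IKBKE, an IKK-related kinase, was at 8.41 and 9.94 FPKM (1.18-fold higher, 1.12 to 1.26) and TBK1, which activates interferon regulatory factors, at 7.12 and 7.42. The family's median log2 ratio was 0.15, from values of -0.16 to 0.22.

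The NF-kB subunits did not differ alike: NFKB1 was higher and REL lower in resistant cells, with the other 3 close to equal. NFKB1, which encodes the precursor of the DNA-binding subunit of the classical dimer and lies on chromosome 4 from 102501331 to 102617302 (GRCh38), was at 5.35 and 7.47 FPKM (2270 and 3224 counts, 1.40-fold higher, 1.33 to 1.48). Its log2 ratio of 0.42 was the highest of the 38, and 94.0% of all genes had a ratio at or below it. RELA, the transactivating partner in the classical dimer, was at 10.5 and 10.3 FPKM (0.986-fold, 0.943 to 1.03). The alternative-route subunits NFKB2 (2.58 and 2.52 FPKM) and RELB (1.89 and 1.71) also had intervals that included equal levels.

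REL, the c-Rel subunit of lymphoid and myeloid cells, lies on chromosome 2 from 60881521 to 60931612 and was at 3.13 and 1.97 FPKM (2746 and 1763 counts, 1.58-fold lower, 1.49 to 1.68). A long non-coding RNA gene on the same strand, AC010733 (ENSG00000267520), spans 60925909 to 60931610 and so covers the last part of REL. Its counts differed in the opposite direction, 105 in parental and 831 in resistant cells. Summed over both genes there were 2851 and 2594 counts, a log2 fold of -0.16 in place of -0.66 for REL alone. How the counting split reads between these genes is not given in the sources used here, and both values are given for that reason.

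All 4 genes of IkB proteins among the members had lower values in resistant cells, beside 53.3% of all genes below 0. Their median log2 ratio of -0.36 was the lowest of the 10 role classes. NFKBIA (IkB alpha), the main inhibitor that is degraded and made again in each response, lies on chromosome 14 from 35401513 to 35404749 and was at 12.2 and 9.37 FPKM (1937 and 1511 counts, 1.30-fold lower, 1.22 to 1.39). NFKBIE (IkB epsilon) was at 13.5 and 10.3 FPKM (1.31-fold lower, 1.23 to 1.40). NFKBIZ (IkB zeta), a nuclear IkB protein that helps transcribe secondary response genes, was at 2.06 and 1.36 (815 and 546 counts, 1.51-fold lower, 1.36 to 1.69). NFKBIB (IkB beta) was the closest to equal at 8.15 and 7.45 FPKM (1.09-fold lower, 1.01 to 1.18). From 10.5% to 11.5% of all genes had log2 ratios as low as those of NFKBIZ, NFKBIE and NFKBIA, and 33.7% as low as that of NFKBIB. Without the IkB genes, 14 of the remaining 34 members were above 0 and 20 below, with a median of -0.02. NXPE3 (5696 and 5095 counts) ends at base 101828231 of chromosome 3, on the same strand, and NFKBIZ begins at 101827991. The summed counts of both genes (6511 and 5641) gave a log2 fold of -0.23. On their own counts it was -0.60 for NFKBIZ and -0.18 for NXPE3. Most of the summed counts were those of NXPE3, so the sum says little of NFKBIZ.

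Of the TNF-induced gene and the ubiquitin editors, TNFAIP2 was lower, TNFAIP3 higher and TNIP1 within counting error of equal. TNFAIP2, a gene named for its induction by tumour necrosis factor, on chromosome 14 from 103121476 to 103137439, was at 17.9 and 9.79 FPKM (6033 and 3361 counts, 1.82-fold lower, 1.75 to 1.90). Its log2 ratio of -0.81 was the lowest of the 38, with 2.20% of all genes at or below it. TNFAIP3 (A20), the deubiquitinase that ends NF-kB signalling and is itself induced by it, lies on chromosome 6 from 137867214 to 137883312 and was at 1.47 and 2.06 FPKM (497 and 705 counts, 1.40-fold higher, 1.24 to 1.57). TNIP1, which binds A20, was at 12.6 and 12.8 (1.01-fold, 0.975 to 1.05). The feedback inhibitors NFKBIA and TNFAIP3 therefore lay on opposite sides of equal levels.

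Several of these genes carry the NF-kB consensus motif, the sequence that NF-kB dimers bind, next to their start sites. RefSeq windows (GRCh38.p14) from 250 bases before to 50 after a start were matched by symbol for 40 of the 49 names, in 54 windows, and were not used for CGAS, STING1, LY96, TLR7, IKBKB, TIRAP, NFKBIE, CASP1 and RELB. The motif was found on either strand, overlapping matches included, in a window of 11 of the 40 (27.5%), beside 7.09% of 27305 genes with windows of the same length. Among the 8641 tested genes with a window the share was 8.71%, and all 11 members with the motif had passed the filter. The members include inhibitors that NF-kB itself switches on, and the part of this choice of genes was not tested. Median GC content was 65.3% in the members' windows and 58.7% in all windows, and its part in the difference was not tested. The windows below are printed 5′ to 3′ on the gene's strand in lower case, with matched bases in capitals, because these genes lay on opposite sides of equal levels. NFKBIA is chr14:35404700-35404999 (minus strand), with its match starting 81 bases before the RefSeq start. TNFAIP3 is chr6:137867009-137867308 (plus strand), with matches starting 67 and 55 bases before the start. NFKB1 is chr4:102501109-102501408 (plus strand), with its match 49 bases before the start.
NFKBIA: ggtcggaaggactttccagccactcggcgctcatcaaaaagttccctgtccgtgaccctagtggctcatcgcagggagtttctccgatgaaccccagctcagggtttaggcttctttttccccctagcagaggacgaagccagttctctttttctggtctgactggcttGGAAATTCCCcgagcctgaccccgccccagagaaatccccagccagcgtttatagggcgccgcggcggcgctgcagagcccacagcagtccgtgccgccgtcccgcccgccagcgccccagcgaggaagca
TNFAIP3: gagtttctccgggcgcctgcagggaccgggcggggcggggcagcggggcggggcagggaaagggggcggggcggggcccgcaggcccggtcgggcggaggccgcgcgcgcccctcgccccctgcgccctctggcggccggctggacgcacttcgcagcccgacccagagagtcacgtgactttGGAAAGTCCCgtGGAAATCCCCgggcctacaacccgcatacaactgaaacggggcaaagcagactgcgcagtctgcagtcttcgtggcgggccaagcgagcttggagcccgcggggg
NFKB1: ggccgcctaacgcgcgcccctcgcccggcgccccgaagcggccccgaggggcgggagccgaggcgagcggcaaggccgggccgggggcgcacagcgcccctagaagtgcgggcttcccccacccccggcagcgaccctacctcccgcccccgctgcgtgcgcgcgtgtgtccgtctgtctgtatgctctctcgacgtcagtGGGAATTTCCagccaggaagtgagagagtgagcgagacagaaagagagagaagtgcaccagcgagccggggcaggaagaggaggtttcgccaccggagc

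Shorter stretches around the matches are given for other members that carry the motif and were lower, equal or higher. REL (chr2:60881502-60881562, plus strand), with a pair of overlapping matches, and NFKBIZ (chr3:101827742-101827801, plus strand) had lower values in resistant cells. NFKB2 (chr10:102394446-102394534, plus strand) and TNIP1 (chr5:151081042-151081101, minus strand) had counting intervals that included equal levels. TRAF3 (chr14:102777391-102777450, plus strand) had a higher value.
REL: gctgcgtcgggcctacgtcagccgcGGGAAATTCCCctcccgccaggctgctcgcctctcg
NFKBIZ: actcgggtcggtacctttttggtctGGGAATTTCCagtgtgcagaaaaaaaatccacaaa
NFKB2: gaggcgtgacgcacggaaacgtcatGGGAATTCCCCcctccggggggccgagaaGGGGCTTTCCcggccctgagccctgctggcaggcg
TNIP1: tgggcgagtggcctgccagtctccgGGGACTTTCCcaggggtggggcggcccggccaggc
TRAF3: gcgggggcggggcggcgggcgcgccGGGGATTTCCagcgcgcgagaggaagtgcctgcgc

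The same 10-base match, GGGAATTTCC, stood on either strand in the windows of NFKBIA, NFKB1, NFKBIZ, REL and NFKBIB. On their own counts, these 5 genes ranged from 1.58-fold lower (REL) to 1.40-fold higher (NFKB1). With same-strand overlapping genes added, the log2 fold was -0.16 for REL and -0.23 for NFKBIZ, where most of the summed counts were those of NXPE3. Of all 11 members with the motif, 7 were below 0 and 4 above, with a median log2 ratio of -0.11, and of the 20 other members with a window that passed the filter 13 were below and 7 above, with a median of -0.02. Among all tested genes with a window, the median was -0.03 for the 753 with the motif and -0.02 for those without, and 54.7% and 54.1% lay below 0. A match is a description of letters in a window and not a binding site.

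NLRC4, NOD2 and NOD1 had lower values in resistant cells, while NLRP3 was higher. NLRC4, which with NAIP proteins forms an inflammasome on flagellin and bacterial secretion systems and lies on chromosome 2 from 32224453 to 32265732, was at 1.33 and 0.41 FPKM (337 and 106 counts, 3.23-fold lower, 2.59 to 4.05). NOD2, the receptor for muramyl dipeptide from bacterial walls, was at 0.96 and 0.39 FPKM (441 and 181 counts, 2.47-fold lower, 2.08 to 2.96). NOD2 ends 8008 bases before CYLD, a deubiquitinase gene on the same chromosome that was at 1.39 and 1.35 FPKM. NOD1, which senses another peptidoglycan fragment, was at 3.22 and 2.73 (1.18-fold lower, 1.09 to 1.27). NAIP, the partner of NLRC4, was at 1.09 and 1.01 FPKM (0.930-fold, 0.838 to 1.03). CYLD and NAIP are no members and were chosen after their values were seen.

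NLRP3, which forms an inflammasome in response to cell damage, was at 18.3 and 20.6 FPKM (1.13-fold higher, 1.09 to 1.17). The adaptor PYCARD (ASC), which joins sensors to caspase-1, was at 31.7 and 27.8 (1.14-fold lower, 1.08 to 1.19), and CASP1, the protease that cuts pro-interleukin-1 beta, at 9.28 and 9.39 (1.02-fold, 0.958 to 1.08). NLRP12, an inhibitory member of the family, was under the filter at 0.79 and 0.74 FPKM (262 and 248 counts). The genes for the NLRP3 inflammasome thus differed by less than 1.2-fold, in different directions.

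The cytosolic DNA pathway was expressed and close to equal. CGAS, the enzyme that makes cyclic GMP-AMP on DNA, was at 10.4 and 11.2 FPKM (1.08-fold higher, 1.02 to 1.13). STING1, its receptor, was at 30.7 and 32.0 (1.05-fold higher, 1.02 to 1.08). Both intervals lay above equal levels by a small margin, and 63.6% and 69.6% of all genes had ratios at or below those of STING1 and CGAS.

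Folds of 2 or more among the members with at least 20 counts were found only at low counts. Of the 36 members with more than 500 counts in the higher library, 0 were 2-fold apart on counts, beside 3.51% of all such genes. Of the 10 members with 20 to 500 counts, 3 passed 2-fold upwards (11.8% of 5330 genes in that range) and 4 downwards (21.1%), a range that was set after the values were seen. Those 7 were TLR5, TLR7, TLR8, TLR9, TICAM2, NLRC4 and NOD2. The others in that range were IRAK2, NLRP12 and RELB.

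**Figure D4:**
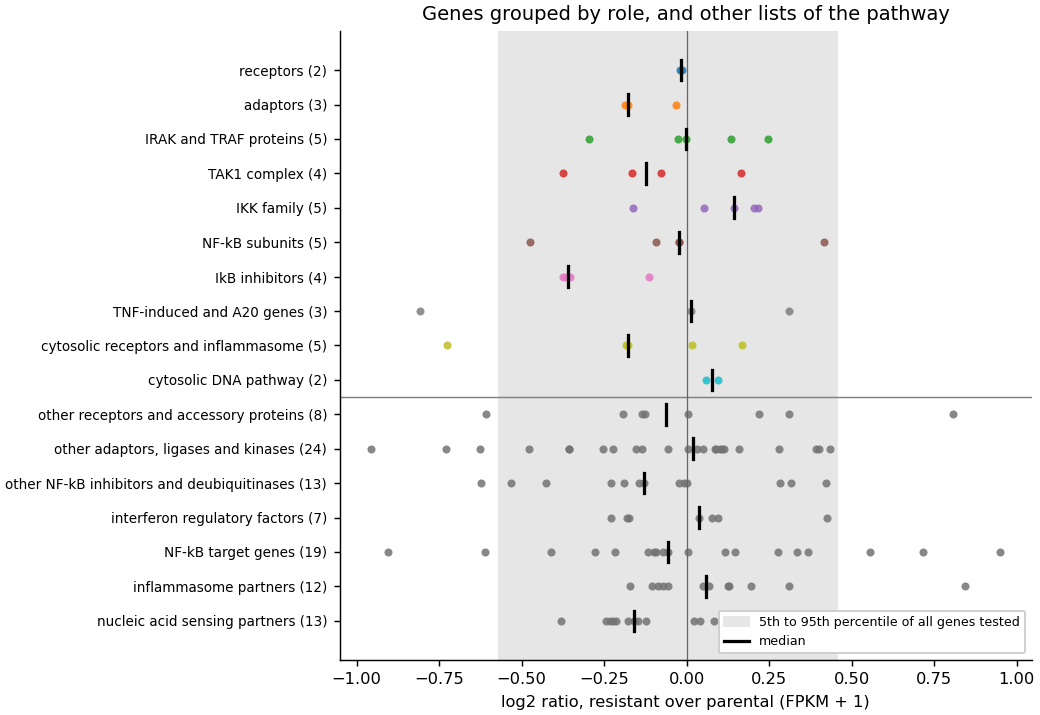
Log2 ratio of resistant over parental (FPKM + 1) for each gene that passed the filter, by role (coloured) and in 7 further lists of the pathway (grey); numbers of genes are in brackets, black bars are medians and the grey band is the 5th to 95th percentile of all genes tested, -0.57 to 0.46. The IkB genes have the lowest median of the role classes (-0.36), and single genes such as CCL5 and TBKBP1 lie outside the band.

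Other genes of the pathway were taken from 7 lists with 138 genes, of which 135 had a row and 95 passed the filter. In these 95, 0 were 2-fold apart on the FPKM + 1 scale, 4 were higher by 1.5-fold or more (2.93% of all genes) and 7 lower (4.77%), with a median of -0.05. Among 19 NF-kB target genes that passed, 2 were 1.5-fold higher and 2 lower on the FPKM + 1 scale, with a median of -0.06. The chemokine genes CCL5 (13.5 and 26.9 FPKM; 2.01-fold higher, 1.88 to 2.14) and CXCL8 (0.51 and 1.48; 2.91-fold, 2.23 to 3.81) were the higher ones. IL1RN, the antagonist of the interleukin-1 receptor, was lower (5.08 and 2.25 FPKM; 2.25-fold, 2.02 to 2.50), as was the transcription factor gene KLF6 (4.33 and 2.49), which falls outside the naming rule and was chosen after its value was seen. The 19 targets lay on both sides, 9 above 0 and 10 below.

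Among other receptors and accessory proteins, 8 of 17 passed the filter, with a median of -0.06. IL1RAP, the co-receptor of interleukin-1 that also signals through MYD88, was at 4.12 and 7.97 FPKM (1.94-fold higher, 1.86 to 2.02). LY86, a partner of the TLR4 relative CD180, was at 11.9 and 7.48 (1.59-fold lower, 1.43 to 1.76), and SIGIRR, an inhibitory receptor, at 2.49 and 3.33. Among 24 other adaptors, ligases and kinases (median 0.02), 3 were 1.5-fold lower and 0 higher on the FPKM + 1 scale. These were TBKBP1, an adaptor of TBK1 (1.56 and 0.32 FPKM; 4.93-fold lower on counts, 3.93 to 6.24), the ubiquitin ligase gene PELI2 (5.27 and 2.78) and RNF31, the catalytic subunit of the linear ubiquitin ligase (9.69 and 5.93; 1.63-fold lower, 1.54 to 1.72). RNF31 alone had 3274 and 2042 counts, a log2 fold of -0.70. With same-strand overlapping genes added there were 5597 and 5591 counts, a log2 fold of -0.02. The added genes thus differed in the opposite direction in sum, and the summed counts do not show that RNF31 itself was equal.

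Among 13 other NF-kB inhibitors and deubiquitinases, 9 were below 0 and 3 above, with a median of -0.13. TNIP2, which like TNIP1 binds A20, was at 11.3 and 6.98 FPKM, NFKBIL1 at 9.36 and 6.17 and the IkB family gene NFKBID at 2.06 and 1.28. BCL3, also of the IkB family, was under the filter and went the other way (66 and 94 counts, 1.40-fold higher, 1.01 to 1.95). It was chosen after its value was seen. The 7 interferon regulatory factors had a median of 0.04, with IRF8 at 177 and 151 FPKM, IRF7 at 1.01 and 1.70 and IRF9 at 1.13 and 0.88. On counts, IRF9 alone (276 and 220) had a log2 fold of -0.35. With the counts of a same-strand overlapping gene added (2590 and 3761 in sum) it was 0.52. Most of the summed counts were those of the other gene, so the sum says little of IRF9. The 12 inflammasome partners had a median of 0.06 and held TXNIP, which binds NLRP3 and thioredoxin (25.6 and 46.7 FPKM; 1.83-fold higher, 1.77 to 1.89), CASP4 (4.73 and 6.10) and CARD16 (3.07 and 3.66). The 13 nucleic acid sensing partners had a median of -0.16, with 9 below 0 and 4 above, and among them LRRC8A was at 5.15 and 3.72 FPKM and IFIH1 at 1.58 and 1.18.

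The 48 genes lie on 17 chromosomes, and none lies in the parts of chromosomes 4, 11 and 13 where neighbouring genes differ together between these libraries. In those parts the median log2 ratio was -0.57 over 144 genes of chromosome 4 up to IGFBP7, 0.26 over 127 genes of chromosome 11 up to DEPDC7 and 0.36 over 50 genes of chromosome 13 from STK24. The parts were bounded with the values of these same libraries known, so these medians describe them and are no test of a shared difference. Some list genes do lie there: TLR1, TLR6, TLR10 and TNIP2 on chromosome 4, and IRF7, NLRP6, SIGIRR and TOLLIP on chromosome 11. Outside these parts, the 91 list genes that passed had a median of -0.06, with 4 higher by 1.5-fold (2.84% of all genes outside) and 6 lower (4.24%). Of members on the same chromosome, TRAF3 and TNFAIP2 lie 209975 bases apart on chromosome 14, and TRAF3 was 1.21-fold higher while TNFAIP2 was 1.82-fold lower. Genes between this pair were not looked up.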

How the data were processed

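Members and gene lists were chosen with earlier results of these data known. Groups came from the titles and treatment labels. The deposited table gave FPKM and raw counts per gene, both made by the authors. The submitters' processing notes list StringTie 1.3.4d, HISAT2 2.0.4, cutadapt 1.9, edgeR, DESeq2 and the build GRCh38, with no role given. The annotation release, strand setting and treatment of shared reads are not given in the sources used here. Here, genes with a symbol and at least 1 FPKM in a library were compared as log2 ratios with a pseudocount of 1 FPKM and called by size, 2-fold or 1.5-fold. The design assumed FPKM; the counts also present gave folds relative to library totals, with Clopper-Pearson 95% intervals that treat reads as independent and cover counting error only. Every member was named, and of each list the 3 genes with the largest absolute log2 ratio; some of these are not reported here. The resistant count column has a suffix the labels do not explain. List symbols were matched by name, and 1 by Ensembl ID under an older name. The steps were tested on simulated data. Tools were edgeR 4.0.16 (scaling factors only), scipy 1.17.1, pandas 2.3.3, numpy 2.4.6, matplotlib 3.10.9 and Python 3.11.15. The median-centred scaling factor differed from the main one by 0.007 (log2) and the TMM factor by 0.028; the TMM setting also used CPM in place of FPKM.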

Additional observations from a re-analysis of the deposited data

How the results depend on the processing

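No paired analysis was possible because each group has 1 library. The count of members past 2-fold, 0 in each direction, depended on how low genes were treated. On counts with no pseudocount and at least 20 counts, 3 were higher and 4 lower, and the same 3 and 4 were found among genes with 20 to 500 counts, a setting chosen after seeing the data. The lower count was 1 with a pseudocount of 0.1 FPKM, 1 with TMM-scaled CPM and 1 with counts summed over same-strand overlaps. The count at 1.5-fold lower, 2 as reported, was 1 with a pseudocount of 5 FPKM and 1 with a minimum of 5 FPKM (fewer genes tested), 8 on counts and 5 among genes with 20 to 500 counts; 1.5-fold higher went from 0 to 3 on counts in both. The median log2 ratio of the members stayed between -0.03 and -0.00235 under the alternatives run. With a minimum of 5 FPKM the list medians were -0.13 for other receptors, -0.0694 for interferon regulatory factors and 0.10 for NF-kB targets. The last 2 were on the other side of 0. With no filter on low values, the medians of inflammasome partners (-0.0139) and interferon regulatory factors (-0.00303) also changed side, and that of NF-kB targets was 0. Of the members that passed the filter, TLR2, IRAK3, IRAK4 and RELA changed sign under a scaling or count setting, from values of -0.0253 (IRAK3) or nearer 0. Under the filter, TICAM2 had a log2 ratio of 0.31 on the FPKM + 1 scale. Its log2 count fold was 1.29 on its own counts and -0.19 with overlaps summed. Genes under 1 FPKM rest on few reads, and no replicate shows how such values vary between cultures.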

Other observations

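Several NF-kB target genes were under 1 FPKM in both libraries and therefore outside the counts above, and they lay on both sides of equal levels. CCL2, a monocyte chemokine, had 10 counts in parental and 45 in resistant cells (4.43-fold higher, 2.20 to 9.87). The co-stimulatory receptor gene CD40 had 38 and 111 counts (2.88-fold higher, 1.98 to 4.28) and PTGS2, the inducible cyclooxygenase, 49 and 125 counts (2.51-fold higher, 1.79 to 3.57). CCL20 had 0 and 11 counts, with a counting interval that began at 2.47-fold higher. In the other direction, IL1B, which encodes interleukin-1 beta, had 100 and 35 counts (2.90-fold lower, 1.96 to 4.39). ICAM1 had 91 and 50 counts (1.85-fold lower, 1.29 to 2.66). The survival gene BCL2A1 had 12 and 0 counts, with a counting interval that began at 2.82-fold lower. These genes were chosen after their values were seen. Other low targets, such as CCL3 (31 and 35 counts) and PTX3 (61 and 62), had intervals that included equal levels. Of 11 NF-kB targets with 20 to 500 counts in the higher library, past the filter or not, 4 were 2-fold or more higher and 2 lower. Of all genes in that range, 11.8% were 2-fold or more higher and 21.1% lower. CCL20 and BCL2A1 were under that range.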
